A study of Homo sapiens with 6 samples.

Results

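The genes described here are targets that the tumour suppressor p53 is known to switch on, measured in PANC-1 cells with and without knockdown of CD73. They were chosen from a list of 39 symbols that leaves out the cyclin-dependent kinase inhibitors and the core apoptosis genes, by matching each symbol to the Ensembl identifiers of the deposited tables. Of the 39 symbols, 37 matched 1 gene each among the 30735 genes of every table, and BTG2L and PLK2L matched none. A gene was tested when it reached 1 RPKM (reads scaled to exon length and library total) in at least 3 samples, which 33 of the 37 did. Of these, 32 were at or above 1 RPKM in all 6 samples, and KITLG was in 2 samples of each group.

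PANC-1 is an established human line of pancreatic ductal adenocarcinoma. RNA was sequenced from 3 samples that had received CD73 siRNA and 3 that had received a negative control siRNA, numbered 1 to 3 in each group. All 6 were lipid-transfected and grown in DMEM with fetal bovine serum. The study describes separate knockdown experiments and names a single CD73 siRNA product, so effects of that product on genes other than CD73 and effects of losing CD73 cannot be told apart. CD73, encoded by NT5E, is a cell surface enzyme that makes adenosine from AMP. The sequencing served to search for genes downstream of CD73.

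p53 is a transcription factor that is stabilised by DNA damage and other stress and then binds pairs of short half-sites near its target genes. The products of those genes halt the cycle, repair DNA, adjust metabolism, change survival and, through MDM2 and its partners, switch p53 off again. PANC-1 is known as a line with mutant p53, and many mutant forms bind these sites poorly. Many targets are also driven by other factors, such as ATF4 or the relatives p63 and p73.

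Candidate sites of wild-type p53 in these genes were looked for in RefSeq promoter windows (GRCh38.p14). Each window ran from 250 bases before to 50 bases after an annotated start. Sites outside the windows were not looked for, so a gene without a match is not shown to lack a site. The motif was the p53 consensus element of 20 bases, 2 adjoining half-sites of 10 bases, with at most 3 mismatches and the central C and G of both half-sites kept. It reads the same on both strands. Of the 47 windows of 29 target genes, 9 held a match (19.1%), against 392 of 35116 windows of all genes (1.12%). With at most 2 mismatches the shares were 8.51% and 0.285%. The unit is the window, and the 9 windows belonged to 8 genes. Because the list was made of known p53 targets, its higher share is not separate evidence about them. The matches of 8 genes are shown on the strand of the gene because they are the candidate contact points of the protein, with the element in capitals and its flanks in lower case. In MDM2 the element is at chr12:68808923-68808942, in DDB2 at chr11:47214969-47214988, in AEN at chr15:88621306-88621325, in GDF15 at chr19:18386186-18386205, in SESN1 at chr6:109009018-109009037, in FDXR at chr17:74872996-74873015, in ABHD4 at chr14:22598284-22598303 and in RPS27L at chr15:63157527-63157546.
MDM2: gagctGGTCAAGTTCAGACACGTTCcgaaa
DDB2: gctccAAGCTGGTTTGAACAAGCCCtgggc
AEN: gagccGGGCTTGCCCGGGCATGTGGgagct
GDF15: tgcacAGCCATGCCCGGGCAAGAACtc
SESN1: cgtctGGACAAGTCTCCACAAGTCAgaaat
FDXR: ggcccGGGCAGGAGCGGGCTTGCCCtgcgg
ABHD4: cgccaGGACCTGGCAAGGCTTGTTTactat
RPS27L: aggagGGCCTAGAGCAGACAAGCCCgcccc

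The DDB2 element had 1 mismatch to the consensus, those of MDM2 and AEN had 2, and the rest had 3. The MDM2 element began at position -94 from an annotated start and that of GDF15 at position 28 after its start. A match of letters does not show that a protein is bound there, and binding was not measured in these samples. The windows of RRM2B, TP53INP1, TNFRSF10C, PHLDA3, FBXO22, GADD45A, CMBL and TRIM22 were not analysed here.

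The library totals behind the values were 15009113 to 16836208 reads. NT5E was at 3.36, 6.85 and 8.22 RPKM in CD73 siRNA samples 1 to 3 and at 14.0, 13.9 and 17.1 RPKM in the controls. NT5E thus fell to 41.0% of the control mean without overlap between the groups, a difference of -1.22 on the log2(RPKM + 1) scale (95% interval -1.82 to -0.63, limma adjusted p = 0.303, past the unadjusted threshold of 0.01 used below). The epithelial keratin genes KRT8 and KRT18 and the mesenchymal gene VIM were well expressed, KRT19 was at 3.60 to 5.39 RPKM, EPCAM and CDH1 were at 1.71 RPKM or less, and KRT7 was at 0.107 RPKM or less. Summed over the 6 epithelial markers, the level was 71.4 to 102 RPKM in the CD73 siRNA samples and 136 to 254 RPKM in the controls, mostly from KRT8 and KRT18, and its part in the differences below was not tested. The leukocyte, endothelial and islet markers that had values summed to at most 0.246, 0.0641 and 0.0765 RPKM per sample, and INS was at 0 in all controls and GCG in all CD73 siRNA samples. Acinar markers were not analysed here. In bulk RNA, fewer cells of a type and less RNA per cell cannot be told apart.

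At the level of single genes, 2 of the 33 tested p53 targets changed at an unadjusted limma p below 0.01, and both fell: GDF15 and ZMAT3. That is 6.06% of the targets, beside 3.13 percent of all 12527 genes tested in either direction and 1.31 percent that fell. No target passed an adjusted p of 0.05, with a lowest adjusted p of 0.303, and 1 gene of all those tested did. At an unadjusted p below 0.05 the count was 7 (21.2%), with XPC and PERP higher and GDF15, ZMAT3, CCNG1, PPM1D and SUSD6 lower, beside 12.1 percent of all genes. With the replicate number as a block, 6 targets (18.2%) had a p below 0.01, with XPC and PERP higher and GDF15, ZMAT3, CCNG1 and GADD45A lower, beside 7.57 percent of all genes. The count at a p below 0.01 without the block also moved with single libraries. It was 1 (3.03%) without CD73 siRNA sample 1, control 1 or control 3, beside 0.926% to 2.06% of all genes, and 5 (15.2%) without control 2, beside 6.32% of all genes.

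The median difference over the 33 targets was -0.12 on the log2 scale, and 19 were below 0 (57.6%), beside a median of 0.0091 and 48.0% over all genes tested. The differences ran from -0.95 for GDF15 to 0.80 for PERP. The values of the CD73 siRNA samples did not overlap those of the controls in 6 targets (18.2%), a share next to the 18.4 percent of all genes. XPC and FBXO22 lay above the controls in this way, and GDF15, ZMAT3, PPM1D and TIGAR below them. The exact two-sided permutation test of 3 samples against 3 gave p = 0.1 for each of these 6, the smallest value it allows.

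**Figure D1:**
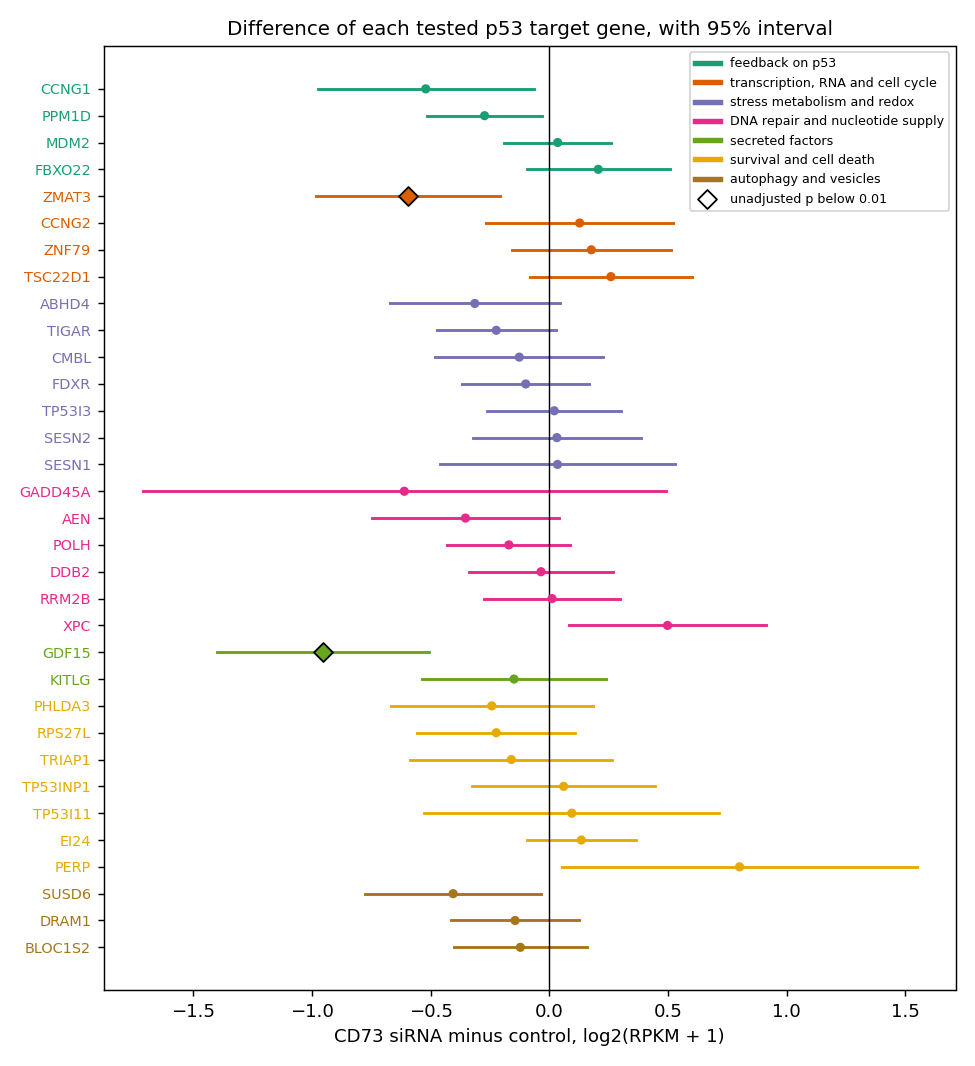
Difference between CD73 siRNA and control on the log2(RPKM + 1) scale for each of the 33 tested p53 targets, coloured by role and sorted by size within it, with the 95% interval from limma as a line. Diamonds mark an unadjusted p below 0.01, which GDF15 and ZMAT3 reached, and the point of PERP lies farthest to the right at 0.80.

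Among the genes that feed back on p53, none passed a p of 0.01 without the block, and the 4 members did not move one way. MDM2, the ubiquitin ligase that marks p53 for degradation, was at 6.10, 6.01 and 5.76 RPKM in the CD73 siRNA samples and at 6.13, 5.66 and 5.58 RPKM in the controls. These 6 values overlapped and were among the closest of any target. The difference was 0.036 with an interval of -0.19 to 0.26 (adjusted p = 0.910), on 1113 to 1305 reads per sample. Of the exon bases of MDM2, 9.21% are shared with other genes.

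CCNG1, cyclin G1, a partner of the phosphatase PP2A that acts on MDM2, was at 32.4, 25.6 and 31.5 RPKM after CD73 siRNA and at 56.2, 32.0 and 44.2 RPKM in the controls. The CD73 siRNA values were all low, but control 2 lay within their range, so the groups overlapped. The mean was 67.6% of the control mean and the difference -0.52 ± 0.20 (SE, adjusted p = 0.373). The value was lower with CD73 siRNA in each replicate number, with differences of -0.77, -0.31 and -0.48 for numbers 1 to 3, and with the block the SE was 0.10 and the threshold was passed. Without control 2 the difference was -0.73, which also passed it, and without control 1 it was -0.33, which did not.

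PPM1D, the phosphatase WIP1 that reverses the phosphorylation of p53 and of its upstream kinases, was at 2.94, 3.10 and 3.17 RPKM with CD73 siRNA and at 3.67, 4.10 and 3.98 RPKM in the controls. The groups did not overlap, and the differences within numbers were nearly equal, at -0.25, -0.31 and -0.26. The overall difference of -0.27 ± 0.11 (SE, adjusted p = 0.378) did not pass a p of 0.01. FBXO22, the substrate subunit of a ubiquitin ligase that acts on p53, was at 5.80, 5.84 and 6.79 RPKM with CD73 siRNA and at 4.30, 5.69 and 5.65 RPKM in the controls. All its CD73 siRNA values lay above the controls, but the difference of 0.21 ± 0.13 (SE, adjusted p = 0.548) did not pass. Of the merged exon bases of FBXO22, 16.2% are shared with NRG4 on the opposite strand. The strand setting of the counting is not given in the sources used here, so reads from those bases cannot be told apart.

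**Figure D2:**
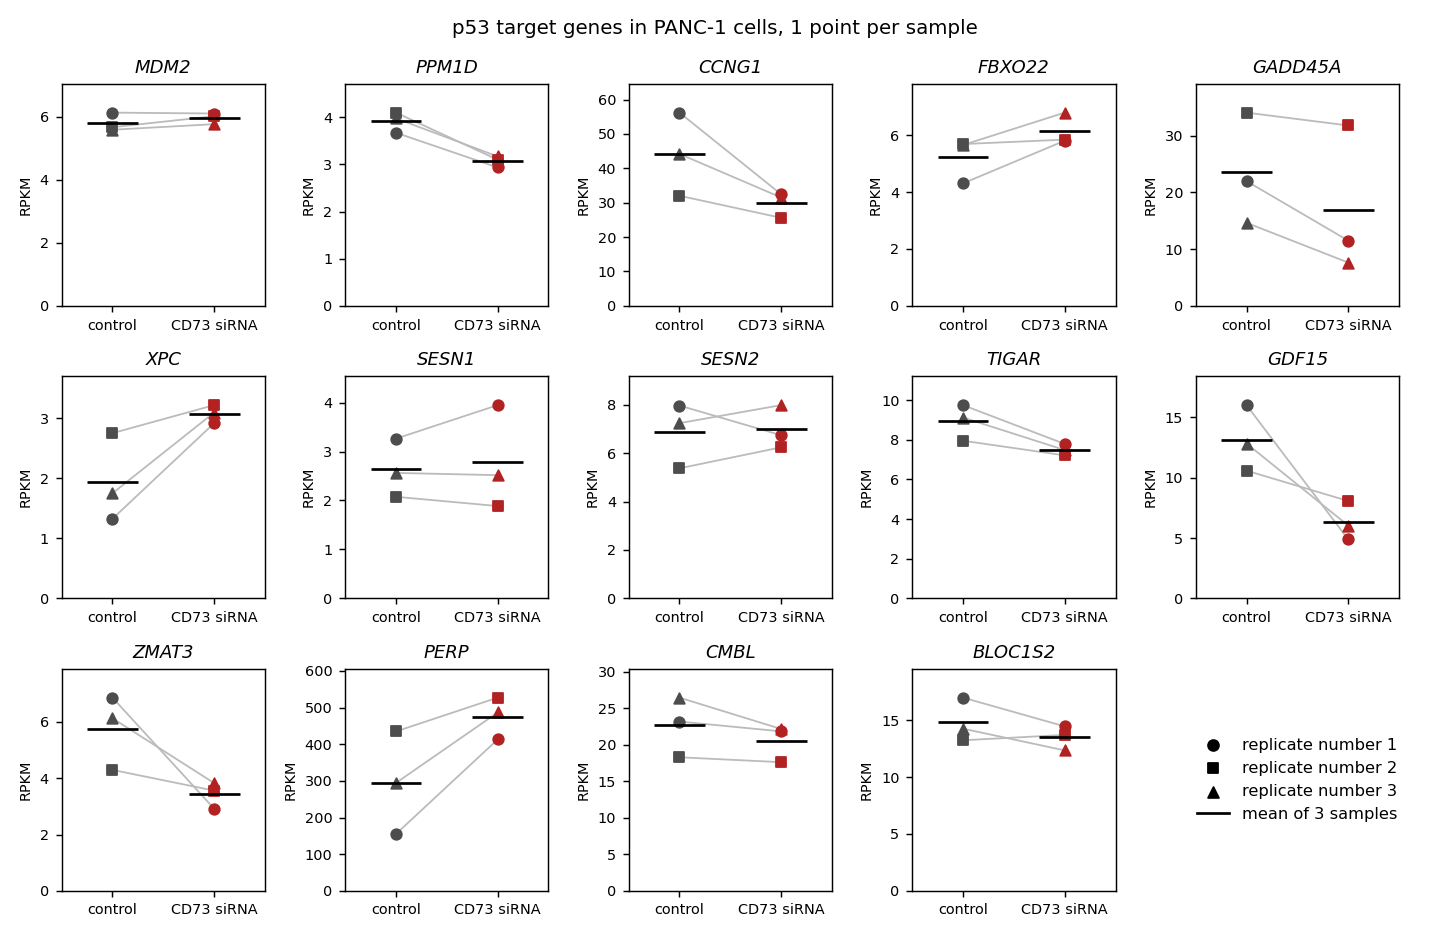
RPKM of 14 p53 targets in each sample (vertical axis from 0, 1 scale per gene), controls in grey and CD73 siRNA in red, with the replicate number as the symbol, lines joining equal numbers and black bars for the means of 3 samples. All 3 lines slope down for GDF15, ZMAT3, CCNG1, PPM1D, TIGAR, GADD45A and CMBL and up for XPC, PERP and FBXO22, while MDM2 is almost flat.

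The secreted factors held the gene with the lowest p of all 33. GDF15, a stress-induced cytokine of the TGF-β superfamily, was at 4.89, 8.07 and 6.03 RPKM in the CD73 siRNA samples and at 16.0, 10.6 and 12.8 RPKM in the controls. Every CD73 siRNA value lay below every control. The mean fell from 13.1 ± 2.73 RPKM to 6.33 ± 1.61 RPKM (SD, 3 samples each), which is 48.2% of the control. The difference of -0.95 ± 0.19 (SE, 95% interval -1.40 to -0.51) passed the unadjusted threshold and had an adjusted p = 0.303. It was -1.53, -0.35 and -0.98 within replicate numbers 1 to 3. GDF15 lies at chr19:18374731-18389176 on the forward strand in GENCODE release 29 (GRCh38), shares no exon bases with another gene, and had 164 to 536 reads per sample. KITLG, the ligand of the receptor KIT, was among the lowest of the tested targets at 0.857 to 1.62 RPKM, with a difference of -0.15 (adjusted p = 0.749).

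In the group of transcription, RNA and cell cycle genes, ZMAT3 fell and 3 others did not pass the test. ZMAT3, an RNA-binding zinc finger protein that acts on the splicing and stability of other transcripts, was at 2.92, 3.56 and 3.82 RPKM with CD73 siRNA and at 6.86, 4.29 and 6.13 RPKM in the controls. The groups did not overlap, and control 2 was the control closest to the CD73 siRNA samples. The mean fell to 59.6% of the control, a difference of -0.59 ± 0.17 (SE, 95% interval -0.98 to -0.21, adjusted p = 0.305). This call was lost without CD73 siRNA sample 1 (-0.51), sample 2 (-0.62) or sample 3 (-0.66) and without control 1 (-0.48) or control 3 (-0.55), with the sign kept each time. ZMAT3 lies at chr3:179017223-179072279 on the reverse strand and had 452 to 1061 reads per sample. TSC22D1, ZNF79 and CCNG2 had differences of 0.26, 0.18 and 0.13, with adjusted p-values from 0.504 to 0.792. Of the exon bases of TSC22D1, 13.1% are shared with opposite-strand genes.

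The DNA repair and nucleotide supply genes showed values on both sides. XPC, which recognises damage in nucleotide excision repair, was at 2.92, 3.22 and 3.10 RPKM with CD73 siRNA and at 1.33, 2.75 and 1.75 RPKM in the controls. All CD73 siRNA values lay above the controls, and they were also closer to each other, with an SD of 0.151 RPKM against 0.732 RPKM. The difference was 0.50 ± 0.18 (SE, adjusted p = 0.358). With the block the SE was 0.14 and the threshold of 0.01 was passed, as it was without control 2, where the difference was 0.69. Of the exon bases of XPC, 30.4% are shared with opposite-strand genes, among them LSM3.

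GADD45A, a growth arrest protein induced by DNA damage, varied most between samples. It was at 11.5, 31.8 and 7.64 RPKM with CD73 siRNA and at 22.0, 34.1 and 14.7 RPKM in the controls. Number 2 was the highest in both groups and number 3 the lowest in both, so the groups overlapped widely. The difference of -0.61 ± 0.48 (SE) had an adjusted p = 0.632, whereas within numbers it was -0.88, -0.096 and -0.86. With the block the SE was 0.16 and the threshold was passed, as it was without CD73 siRNA sample 2, where the difference was -1.16. It was only -0.20 without CD73 siRNA sample 3 and -0.32 without control 2, and neither passed.

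The remaining genes of this group did not pass the test. AEN, a nuclease, was at 10.6 to 17.6 RPKM with a difference of -0.35 (adjusted p = 0.449). POLH, the polymerase that copies past ultraviolet lesions, had a difference of -0.17 (adjusted p = 0.570), and DDB2, the ultraviolet damage sensor with the closest consensus match shown above, had one of -0.035 (adjusted p = 0.938). RRM2B, a subunit of ribonucleotide reductase, was at 16.4 to 20.7 RPKM with a difference of 0.012 and an interval of -0.27 to 0.30 (adjusted p = 0.978).

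No member of the stress metabolism and redox group passed a p of 0.01, with or without the block. TIGAR, a fructose bisphosphatase that slows glycolysis, was at 7.79, 7.21 and 7.48 RPKM with CD73 siRNA and at 9.75, 7.95 and 9.12 RPKM in the controls. The groups did not overlap, with a difference of -0.22 ± 0.11 (SE, adjusted p = 0.449), and 45.6% of its exon bases are shared with other genes. The sestrins restrain the growth kinase mTORC1. SESN1 was at 3.95, 1.89 and 2.52 RPKM with CD73 siRNA and at 3.26, 2.08 and 2.56 RPKM in the controls. SESN2 was at 6.74, 6.24 and 7.98 RPKM with CD73 siRNA and at 7.96, 5.37 and 7.24 RPKM in the controls. The groups overlapped for both genes, with intervals of -0.46 to 0.53 for SESN1 and -0.32 to 0.39 for SESN2. With the block the SEs were 0.11 and 0.10 and neither gene passed a p of 0.01. CMBL, a hydrolase and the most highly expressed gene of the group, was at 21.8, 17.6 and 22.2 RPKM with CD73 siRNA and at 23.2, 18.3 and 26.5 RPKM in the controls. Its values overlapped, with a difference of -0.13 ± 0.15 (SE, adjusted p = 0.771). ABHD4, a lipid hydrolase, FDXR, which passes electrons to mitochondrial cytochromes, and TP53I3, a quinone oxidoreductase, had differences of -0.31, -0.099 and 0.021, with adjusted p-values from 0.457 to 0.963.

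The survival and cell death group included the most abundant target, PERP, a membrane protein of desmosomes. PERP was at 413, 527 and 487 RPKM with CD73 siRNA and at 155, 435 and 295 RPKM in the controls. Control 2 reached the range of the CD73 siRNA samples, while controls 1 and 3 were well below it. The difference of 0.80 ± 0.32 (SE, adjusted p = 0.387) was 1.41, 0.28 and 0.72 within numbers 1 to 3. With the block the SE was 0.19 and the threshold was passed, as it was without control 2, where the difference was 1.14. Without control 1 the difference was 0.40 and did not pass. PERP was thus opposite in sign to GDF15 and ZMAT3 in every replicate number.

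None of the other tested genes of the group passed the test. EI24, a protein of the endoplasmic reticulum, was at 73.6 to 92.8 RPKM with a difference of 0.14 (adjusted p = 0.612). PHLDA3, which competes with AKT for membrane lipids, was at 2.04, 2.27 and 2.03 RPKM with CD73 siRNA and at 3.78, 2.61 and 1.89 RPKM in the controls. Its difference was -0.24 (adjusted p = 0.624), and 19.1% of its exon bases are shared with another gene on the same strand. TRIAP1, TP53INP1 and TP53I11 had differences of -0.16, 0.061 and 0.095, with adjusted p-values from 0.754 to 0.914. RPS27L, a close relative of the ribosomal protein gene RPS27, had a difference of -0.22 (adjusted p = 0.559). Whether reads were exchanged between these similar genes was not tested, so its level is uncertain.

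The 3 tested genes of autophagy and vesicles all had differences below 0, and none passed a p of 0.01. SUSD6, a membrane protein, was at 2.68, 3.40 and 4.38 RPKM with CD73 siRNA and at 5.53, 4.31 and 4.83 RPKM in the controls. The groups overlapped at CD73 siRNA sample 3 and control 2, with a difference of -0.41 ± 0.16 (SE, adjusted p = 0.382), and without sample 3 it was -0.54 and passed. It was -0.27 without CD73 siRNA sample 1 and -0.33 without control 1, and neither passed. BLOC1S2, a subunit of complexes that position lysosomes, was at 14.5, 13.7 and 12.4 RPKM with CD73 siRNA and at 17.0, 13.2 and 14.3 RPKM in the controls. Its difference of -0.12 ± 0.12 (SE) had an adjusted p = 0.711, and that of DRAM1, a lysosomal membrane protein, was -0.14 (adjusted p = 0.645).

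The remaining 4 targets with a value in the tables were too low to test. EDA2R, a receptor of the TNF receptor family, had 0 to 2 reads per sample, and SPATA18, a protein of mitochondrial quality control, had 0 to 4. TNFRSF10C, a decoy receptor for TRAIL, had 2 to 6 reads, and TRIM22, an interferon-induced protein, had 0 to 17. A count of 0 allows up to 3 reads, which for EDA2R corresponds to 0.0498 to 0.0540 RPKM in the samples with 0 reads. This limit covers counting error only. TRIM22 had its 17 reads in control 1 and 7 or fewer in each of the other samples.

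**Figure D3:**
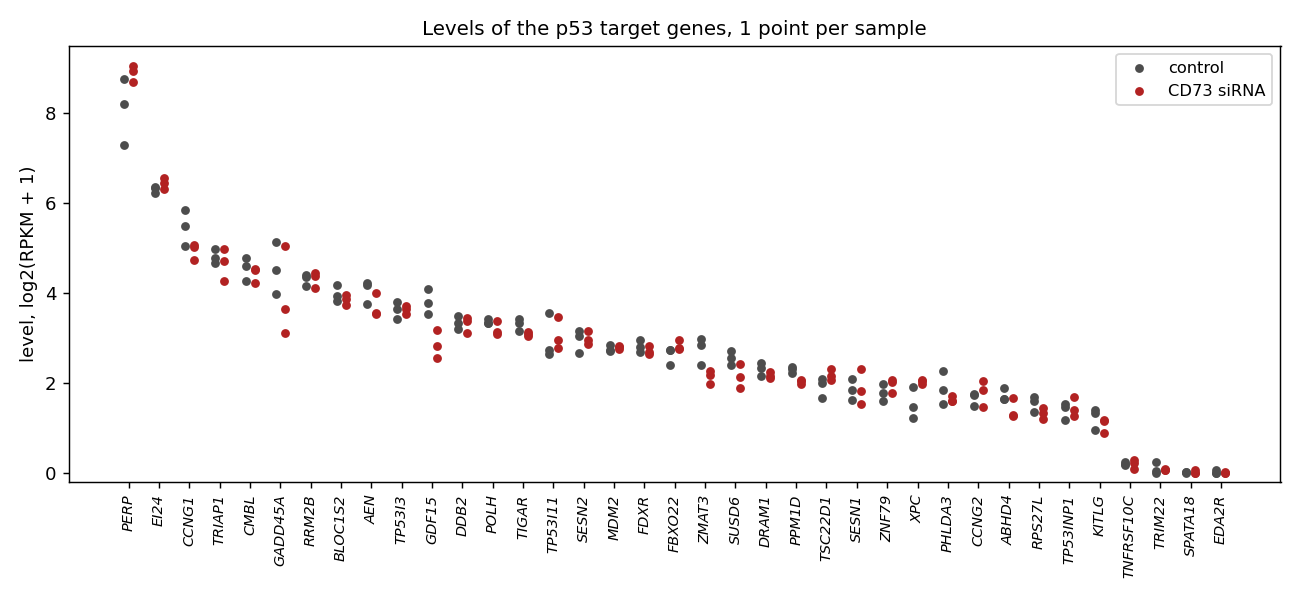
Level of each of the 37 p53 targets with a value, as log2(RPKM + 1), with 1 point per sample, controls in grey and CD73 siRNA in red, ordered by mean level. PERP is the highest and EDA2R the lowest, and the 4 genes at the right lie near 0 in all 6 samples.

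The comparison within replicate numbers gave the same sign in all 3 numbers for 20 of the 33 targets (60.6%), beside 51.4 percent of all genes tested. The sign was positive for XPC, FBXO22, PERP, EI24, TSC22D1 and ZNF79 and negative for the other 14. The median difference over the targets was -0.20 in number 1, -0.049 in number 2 and -0.045 in number 3, against 0.018, -0.0012 and 0.013 over all genes. Regardless of sign, the median size of the difference was 0.25, 0.10 and 0.19 in numbers 1, 2 and 3 for the targets, and 0.24, 0.10 and 0.15 for all genes. Number 1 held the largest of the 3 differences in 25 of the 33 targets (75.8%) and in 58.9% of all genes. Control 2 was the control nearest the mean of the CD73 siRNA samples in 18 targets (54.5%) and in 46.1% of all genes. For NT5E the differences were -1.78, -0.92 and -0.98 in the 3 numbers.

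**Figure D4:**
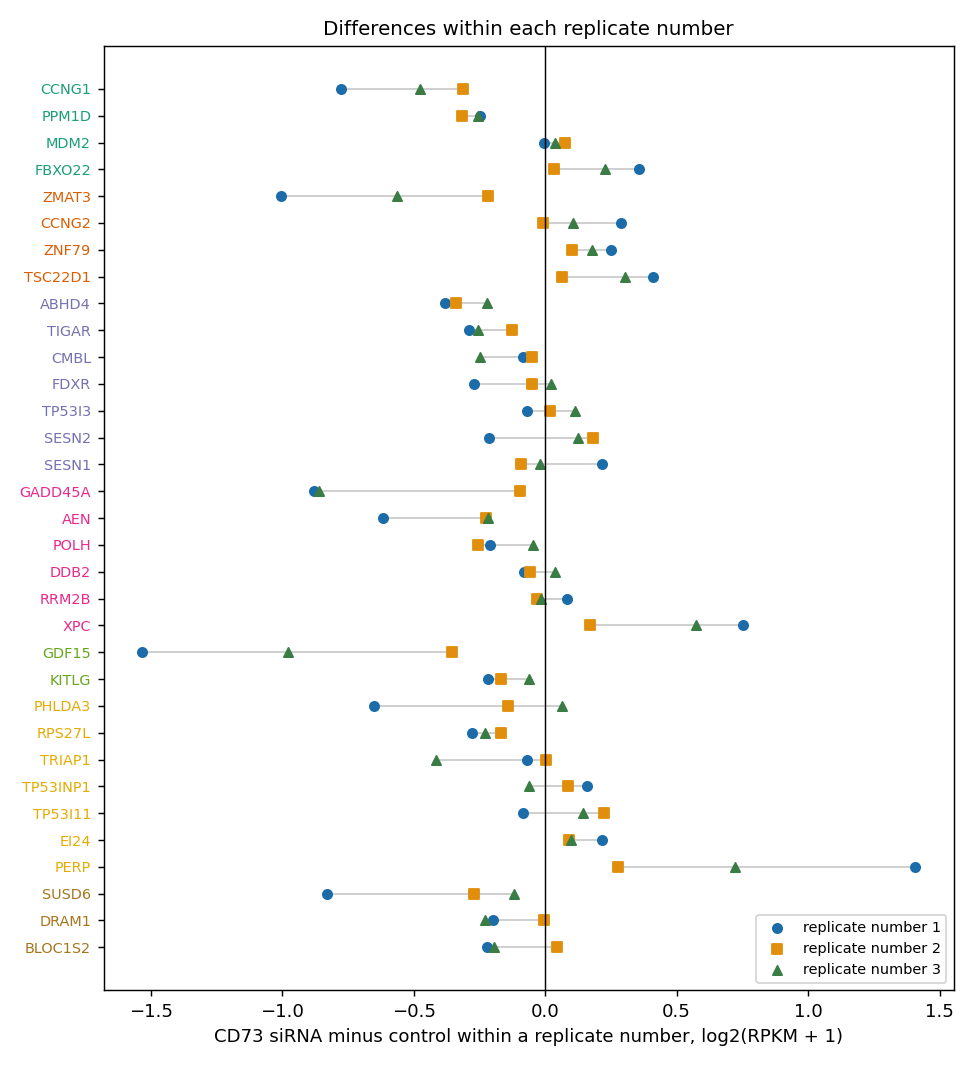
Difference between CD73 siRNA and control within each replicate number on the log2(RPKM + 1) scale for the 33 tested p53 targets, with circles for number 1, squares for number 2 and triangles for number 3. Number 1 lies farthest from 0 for most genes, from -1.53 for GDF15 to 1.41 for PERP, and number 2 lies closest to 0 for 18 of the 33.

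A second list of 80 other p53 targets includes the genes left out above and was chosen with earlier results of these data known. It gave 79 genes with a value and 59 tested. Of these 59, 4 fell at a p below 0.01 and none rose (6.78%, beside the background given above). The median difference was -0.064 with 39 below 0 (66.1%, beside 48.0% of all genes). With the block the count was 8 (13.6%), all lower, beside 948 of all genes (7.57%), 413 of them lower. CSF1 left the count, and APOBEC3C, EPHA2, FUCA1 and TNFRSF10B were among those that joined. The count ran from 1 (1.69%) without CD73 siRNA sample 1 to 7 (11.9%) without CD73 siRNA sample 2, beside 0.926% and 2.52% of all genes. It was 2 (3.39%) without CD73 siRNA sample 3 or control 1, beside 2.2% and 1.5% of all genes.

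CDKN1A, which encodes the cell cycle inhibitor p21, was at 8.14, 9.79 and 8.14 RPKM with CD73 siRNA and at 20.3, 12.0 and 16.2 RPKM in the controls. It fell to 53.8% of the control without overlap, a difference of -0.80 ± 0.18 (SE, adjusted p = 0.303), a call lost without CD73 siRNA sample 1 (-0.76). KRT8, the keratin named above, was at 45.4, 47.5 and 30.0 RPKM with CD73 siRNA and at 158, 72.0 and 83.6 RPKM in the controls. It fell to 39.2% of the control, a difference of -1.27 ± 0.30 (SE, adjusted p = 0.303).

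CSF1, the growth factor of macrophages, was at 11.7, 19.8 and 16.6 RPKM with CD73 siRNA and at 41.0, 23.8 and 26.8 RPKM in the controls. It fell to 52.4% of the control (difference -0.88 ± 0.24, SE, adjusted p = 0.305), a call lost without CD73 siRNA sample 1 (-0.68), sample 3 (-0.92) or control 1 (-0.66). STEAP3, a reductase of iron, was at 10.3, 15.5 and 10.9 RPKM with CD73 siRNA and at 18.3, 17.2 and 18.7 RPKM in the controls. It fell to 67.7% of the control (difference -0.55 ± 0.15, SE, adjusted p = 0.305). This call was lost on leaving out CD73 siRNA sample 1 or 3 or any 1 control, with differences from -0.44 to -0.58. BTG2 and PLK2, whose symbols resemble the unmatched ones, had differences of -0.15 (adjusted p = 0.656) and -0.036 (adjusted p = 0.966).

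Of 30 genes on a list of the p53 family and the proteins that act on p53, 26 were tested and 1 fell, USP10 (3.85%, near the 3.13% of all genes called in either direction). CDKN2A was not analysed here. USP10, which removes ubiquitin from p53, was at 22.4, 29.8 and 26.5 RPKM with CD73 siRNA and at 37.0, 35.8 and 33.7 RPKM in the controls. The groups did not overlap, with a mean at 74.0% of the control and a difference of -0.43 ± 0.12 (SE, adjusted p = 0.305). The call remained without CD73 siRNA sample 2 and was lost on leaving out any 1 of the other samples, with differences from -0.32 to -0.47. With the block CHEK1, a checkpoint kinase, also passed (-0.30 with an SE of 0.078), for a count of 2 (7.69%, near the 7.57% of all genes). The groups did not overlap in 7 of the 26 genes (26.9%, beside 18.4% of all genes). BRD7, a bromodomain protein (0.46, adjusted p = 0.357), and MAPK14, the stress kinase p38 alpha (0.31, adjusted p = 0.377), lay above the controls. The other 5 lay below them, among them USP10 and MDM4, the partner of MDM2 (-0.19, adjusted p = 0.536).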

How the data were processed

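Total RNA of PANC-1 cells was sequenced in 6 samples, 3 per group. The deposited tables hold 1 RPKM value per gene and sample. The unit was inferred: after scaling by the summed exon length of GENCODE release 29, 95.5% to 95.6% of genes under 1000 reads were whole multiples of 1 step per sample (tolerance 0.05 reads), and the steps gave the library totals. The submitters' processing notes name bcl2fastq, Bowtie2 2.2.3, HTSeq 0.6.0 and hg38. The annotation and strand setting are not given in the sources used here. RPKM divides by length and library total, so composition differences between libraries remain.

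Symbols came from a supplied name table (30384 of 30735 identifiers matched), and 132 identifiers were absent from GENCODE release 29. log2(RPKM + 1) was fitted with limma 3.58.1 (lmFit, eBayes with trend) in R 4.3.3 over the 12527 genes that reached 1 RPKM in 3 or more of the 6 samples. Changed means an unadjusted p below 0.01, the limit that the paper gives. The paper names Student's t test for its data in general. In the sources used here it states no test or adjustment for the sequencing in particular. Adjusted p is Benjamini-Hochberg over all 12527. Differences on this scale understate changes of low genes. The limma fit without the block was tested on simulated data, in which the samples were drawn independently of each other. The other steps had no such test. No 2 samples held identical values. Samples with the same replicate number deviated together from their group means (Pearson r 0.197, 0.481 and 0.553 for numbers 1 to 3, over genes), so they were treated as pairs in the block fit. The numbers come from the sample labels, which do not say what they share. If the samples were not separate cultures, p-values measure technical spread.

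Members and lists were chosen with earlier results of these data known. Values in every sample are given for members with p below 0.01 with or without the block, those not overlapping, MDM2, PPM1D, CCNG1, GADD45A, SESN1, SESN2 and GDF15, and the highest of each role. From the other lists, genes with p below 0.01 and CDKN1A are given, and items withheld from this text are not reported here. SUSD6, PHLDA3, CHEK1, BTG2, PLK2, BRD7, MAPK14 and MDM4, and the genes that only the block adds, were named after their values were seen. Alternatives were a pseudocount of 0.1, no filter, the block, 2 rescalings, other thresholds and leaving out each sample.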

Additional observations from a re-analysis of the deposited data

How the results depend on the processing

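GDF15 passed a p of 0.01 with the other pseudocount, without the filter, with the block, under both rescalings and without any 1 sample, but not at an adjusted p of 0.05. The paired fit, with the replicate block, gave 6 of the 33 targets, 8 of the 59 further targets, 2 of the regulators and 948 of all genes at a p below 0.01. Without the filter on low values the counts were 1 target (GDF15, with ZMAT3 lost) and 2 further targets, CDKN1A and KRT8, which is 2.70% and 2.53% beside 1.51% of all genes. With values rescaled to the same sum, 0 of 26 regulators and 3 of 60 further targets (5%) were called, beside 2.72% of all genes. USP10 was then at -0.40, and STEAP3 lost its call at -0.52. At an unadjusted p below 0.05 the counts were 7 targets and 1519 genes, and at an adjusted p below 0.05 they were 0 and 1. Leaving out 1 sample gave 1 to 5 targets (3.03% to 15.2%) and 1 to 7 further targets (1.69% to 11.9%). It gave 0 to 1 regulators (0% to 3.85%), beside 116 to 792 of all genes (0.926% to 6.32%). The ends of these ranges came from different fits. The 1 regulator was called without CD73 siRNA sample 2, where 2.52% of all genes were called. The difference of RRM2B turned to -0.0048 under median-ratio scaling. Leaving out 1 sample turned the sign of genes near 0, whose ranges were -0.18 to 0.21 for SESN1, -0.11 to 0.13 for SESN2, -0.064 to 0.11 for RRM2B, -0.061 to 0.16 for TP53INP1, -0.075 to 0.11 for TP53I3, -0.11 to 0.065 for DDB2, -0.00064 to 0.28 for CCNG2, -0.33 to 0.036 for TRIAP1 and -0.11 to 0.39 for TP53I11. The cause of these shifts was not tested. A test of counts was not run, and the read numbers inferred from the RPKM values served only to describe depth. Depth limits the 4 targets with 0 to 17 reads.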
